A study of Homo sapiens with 6 samples.

Results

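Intronless protein-coding genes, the genes whose annotated transcripts all hold 1 exon, were examined in K562 cells after knockdown of PCBP1. The members were the protein-coding genes on the autosomes and chromosome X for which every transcript of GENCODE release 44 has 1 exon, leaving out PCBP1 itself, which is intronless, and the histone genes. There were 908 such genes among 19970 protein-coding genes, and 18994 protein-coding genes with introns, here called multi-exon genes, served for comparison. Of the 908 members, 891 have 1 annotated transcript and 17 have several.

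Most human messenger RNAs are spliced, and splicing leaves proteins on the RNA that help its export, translation and surveillance. Transcripts without introns reach the cytoplasm without that history and rely on transcription, on 3′ end processing and on sequence elements of their own. The class gathers signalling receptors, immediate early and developmental transcription factors, stress chaperones and copies made by reverse transcription, together with large families such as the olfactory receptors that are silent outside their own tissue. PCBP1 is a KH-domain protein that binds C-rich RNA, acts in splicing, stability and translation, and delivers iron to enzymes in the cytosol.

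RNA was measured in 6 poly-A libraries of K562, a human erythroleukemia line. All 6 came from cells transduced with pLKO.1 lentivirus in the presence of 8 µg/mL polybrene and selected with 3 µg/mL puromycin for 4 days. The shCtrl group (3 libraries) carried a short hairpin RNA (shRNA) against luciferase, which K562 does not make, and the shPCBP1 group (3 libraries) a hairpin against PCBP1. The comparison asks what loss of PCBP1 does to messenger RNA levels. The hairpins act in a transduced population, not in a clone, and the labels do not say whether the libraries of a group came from separate transductions, so p-values measure the spread between these libraries, which may be technical.

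The libraries held between 67066747 and 140522444 estimated counts, and libraries of the same group were farther apart than counting alone gives (chi-square over degrees of freedom from 6.48 to 16.4). Depth moved with the groups: shCtrl totals ran from 83033656 upwards and shPCBP1 totals up to 85121124. The targeted PCBP1 had 40566, 38409 and 37799 normalized counts in the control libraries against 6625, 7277 and 7221 after knockdown, or 18.1% of the control level. All 8 erythroleukemia markers were present, between 107 and 14991 TPM (a level scaled for transcript length and library total). Of 14 markers of T cells, B cells, monocytes, fibroblasts and epithelium, CD3D, LYZ and EPCAM lay between 26.7 and 73.7 TPM and the rest at or below 6.61 TPM, while CD3E, MS4A1 and KRT5 were at or near 0. CD3D ran from 61.7 to 73.7 TPM in shCtrl and from 46.5 to 63.0 TPM in shPCBP1, and its part in the results was not tested. In such bulk samples, fewer cells of a kind and less RNA per cell cannot be told apart.

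Most members were silent or nearly so in K562. Of the 908, 13 had no row in the tables and 895 did, of which 403 had no count in any library, and 171 more had a summed count under 10. The remaining 321 entered the fit over 28848 genes, and 178 received an adjusted p (all of them with mean normalized counts of at least 36.8), here called tested. Of 908 members, 131 averaged at least 1 TPM, 56 at least 10 TPM and 3 at least 100 TPM, whereas 676 averaged under 0.1 TPM. The other 143 fitted members received no adjusted p, so the counts below describe the better measured part of the class.

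The moderately and highly expressed intronless genes were slightly more abundant in shPCBP1. With DESeq2 and a Benjamini-Hochberg adjusted p under 0.05 over all genes tested, 47 of 178 tested members rose (26.4%) and 8 fell (4.49%), while 123 did not pass. Over all 17095 genes tested, 17.7% rose and 13.5% fell. The rises were small, between 0.13 and 1.63 on the log2 scale with a median of 0.25, a 1.19-fold change, and 44 of the 47 were under 0.5. They lay on 19 chromosomes. The 8 falls ran from -1.20 to -0.28 with a median of -0.54. The study's thresholds (an adjusted p under 0.05 with a change of more than 1 on the log2 scale at an average above 10 normalized counts) were passed by 3 members, among them TPBGL as a rise and CITED4 as a fall, where 1.37% of all tested genes passed them.

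The median log2 fold change was 0.12 over the 178 tested members, 0.02 over 12591 tested multi-exon genes and 0.00 over all tested genes. The difference between the first of these medians and the second was 0.0987. It was 0.0638 with edgeR and 0.0459 or 0.0141 with limma on log2 TPM (pseudocount 0.1 or 1). Those fits tested all 321 fitted members, not the 178, so the gene set changed with the method. From a mean of 1000 upwards the difference was 0.142 with DESeq2, 0.142 with edgeR and 0.111 or 0.0989 with limma. Sensitivity of the test depends on the count, so members were set beside multi-exon genes of like count, in bins of the mean normalized count. When the calls of multi-exon genes were reweighted to the bins of the members, 14.3% would be higher and 15.0% lower, against 26.4% and 4.49% of members. The member median lay above the multi-exon median in all 6 bins.

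The excess of rises was found among well-counted members, those with mean normalized counts of at least 1000. Of 81 such members, 44 rose (54.3%) and 1, INAFM1, fell (1.23%), and 71 had a positive log2 fold change. Among 8748 multi-exon genes with such counts, 29.2% rose and 15.9% fell, and 60.7% had a positive log2 fold change. The medians were 0.19 for the members and 0.04 for the multi-exon genes. In the bin from 1000 to 3162, 19 of 40 members rose and 16.97% of multi-exon genes did, with medians of 0.19 and 0.01. From 3162 to 10000, 21 of 32 members and 31.7% of multi-exon genes rose, with medians of 0.20 and 0.05. Above 10000, 4 of 9 members and 41.2% of multi-exon genes rose, so at the highest counts the share of rises was close to that of genes with introns. With limma on log2 TPM in place of counts, fewer genes passed: 11.1% of these members rose beside 9.82% of multi-exon genes (pseudocount 0.1) and 9.88% beside 9.24% (pseudocount 1), so the excess of called rises was not present there, while the difference of the medians remained 0.11 and 0.10.

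Below a mean of 1000, few members passed in either direction. Of 97 such members, 3 rose and 7 fell, and among 3843 multi-exon genes 5.18% rose and 13.9% fell. The member median was 0.05 and that of the multi-exon genes -0.10.

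**Figure D1:**
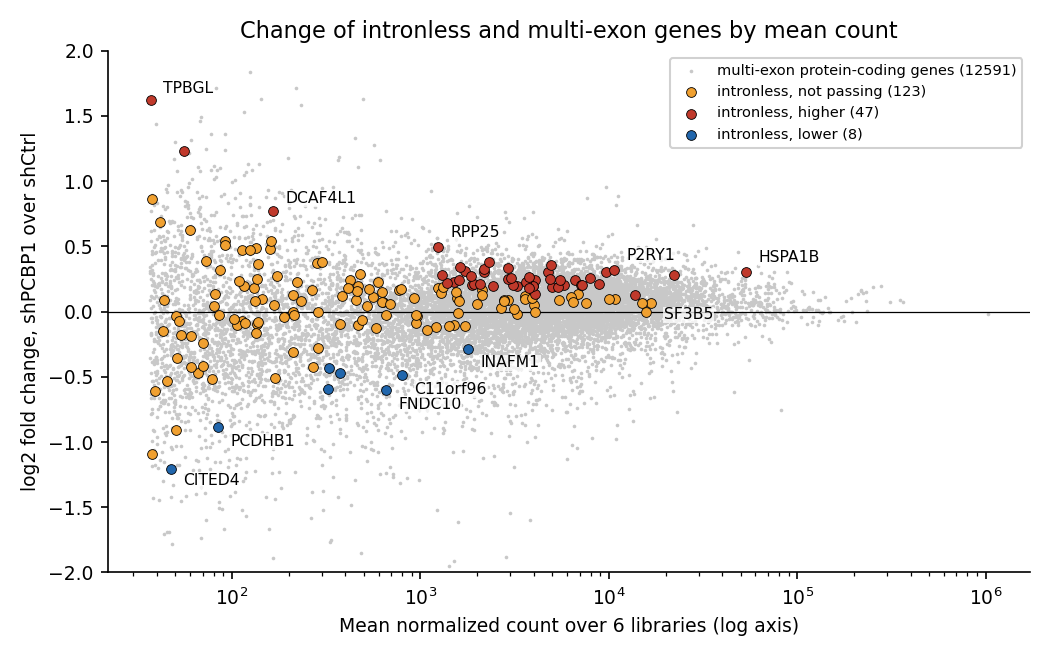
Log2 fold change (shPCBP1 over shCtrl) against the mean normalized count over 6 libraries (log axis). Grey points are 12591 multi-exon protein-coding genes, of which 13 lie outside the axis; coloured points are the 178 tested intronless genes, with 47 higher, 8 lower and 123 not passing. From a mean of 1000 upwards 71 of 81 coloured points lie above 0, as do 60.7% of the multi-exon genes.

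**Figure D2:**
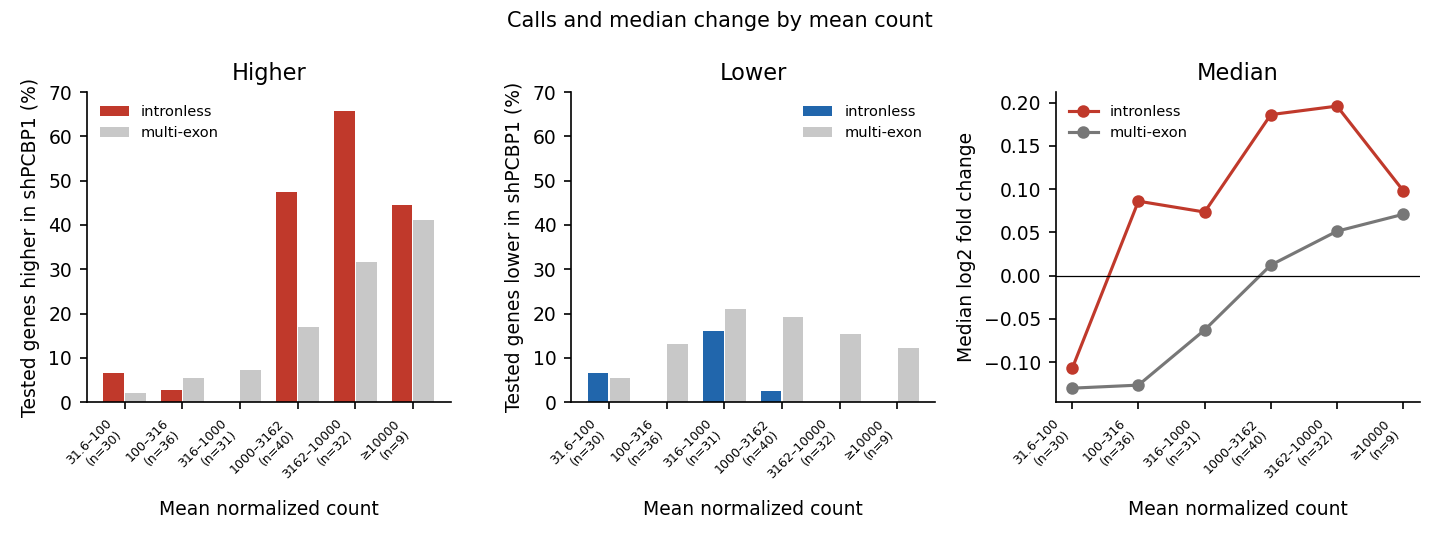
Share of tested genes that were higher or lower in shPCBP1 (%), and the median log2 fold change, by bin of the mean normalized count, for intronless (coloured; their n under each bin) and multi-exon genes (grey). The difference in rises is widest from 1000 to 10000, where 19 of 40 and 21 of 32 intronless genes rose.

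The shift of intronless genes beside multi-exon genes was also laid out by library. For every gene the log2 normalized count was taken as a deviation from its mean over the 6 libraries, and the median deviation of multi-exon genes was subtracted from that of the intronless genes. The tested members stood at -0.06, -0.07 and -0.04 in the shCtrl libraries and at 0.05, 0.05 and 0.05 in the shPCBP1 libraries. For the 81 well-counted members the values were -0.05, -0.10 and -0.05 in shCtrl and 0.05, 0.05 and 0.06 in shPCBP1. The groups did not overlap in either set. Because deviations were taken from the mean over the same 6 libraries, the opposite signs of the groups restate the shift and are not separate evidence. The lowest centre was that of shCtrl replicate 2. Depth moved with the groups, and its part in the shift was not tested.

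**Figure D3:**
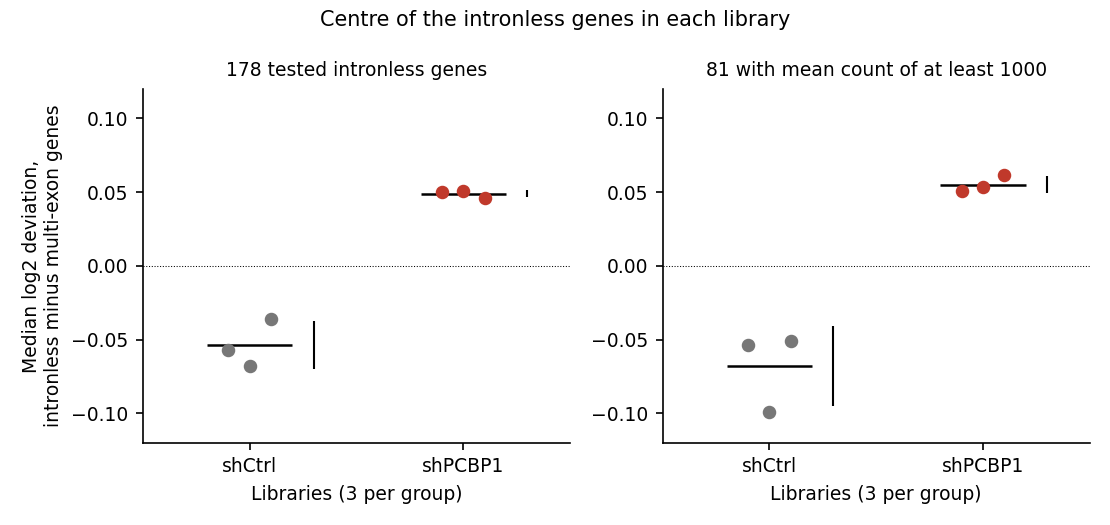
Median log2 deviation of intronless genes minus that of multi-exon genes in each library (points), with the mean of 3 libraries (horizontal bar) and the SD (vertical bar), for all 178 tested members and for the 81 with mean normalized counts of at least 1000. All shPCBP1 points lie above 0 and all shCtrl points below it; deviations are taken from the mean over all 6 libraries.

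As a share of protein-coding RNA, intronless genes made up 0.331%, 0.323% and 0.330% of protein-coding TPM in shCtrl, or 0.328% ± 0.00427 (SD, n = 3), and 0.344%, 0.352% and 0.352% in shPCBP1, or 0.349% ± 0.00422 (SD, n = 3). Every shPCBP1 library was above every shCtrl library. The difference of 0.0210 percentage points was -0.00695 when the intronless histone genes were counted in, and 0.0123 without the 6 most abundant members. The 6 most abundant members held between 42.0% and 43.7% of the intronless TPM.

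Among multi-exon genes, called rises did not become steadily more frequent as the exon number fell, but these classes were not of like count. Among well-counted multi-exon genes, the share of rises was 31.7% for genes whose canonical transcript has 2 exons, 28.4% for 3 to 4 exons, 27.7% for 5 to 8, 28.0% for 9 to 16 and 32.8% for 17 or more. Falls took 11.8%, 12.9%, 14.2%, 17.1% and 18.8% of these classes. In the same order, the median log2 fold changes were 0.066, 0.051, 0.043, 0.043 and 0.042, highest for the fewest exons. The median mean counts were 3114, 3843, 4613, 4935 and 6264, and calls of rises depend on the count. Genes whose canonical transcript has 1 exon but which also have spliced transcripts were counted apart. Of 25 well-counted ones, 7 rose (28%) and 0 fell, with a median of 0.06. Among well-counted multi-exon genes 29.2% rose and 15.9% fell, so rises in this class were about as frequent as there. Over all 54 tested genes of this class, 8 rose (14.8%) and 1 fell, with a median of -0.0055. The intronless histone genes, many of whose transcripts end without a poly-A tail, had 35 tested genes, of which 0 rose and 3 fell.

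The share of rises was higher among members than among multi-exon genes in each class of GC content and length. Among well-counted genes under 45% GC, 12 of 23 members and 26.0% of multi-exon genes rose. From 45% to 55% GC, 13 of 21 members and 35.5% of multi-exon genes rose, and from 55% GC upwards 19 of 37 members and 26.9% of multi-exon genes. Transcripts under 2000 bases rose in 8 of 22 members and 18.9% of multi-exon genes, those from 2000 to 4000 bases in 18 of 28 and 27.2%, and longer ones in 18 of 31 and 36.8%.

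C content is of interest because PCBP1 binds C-rich RNA. Cytosine made up a median of 25.8% of the transcript of the 47 members that rose, 33.3% of the 8 that fell and 25.03% of those that did not pass. Multi-exon genes showed medians of 23.8% for rises and 28.0% for falls. GC content went the same way, with medians of 51.2% for rises and 65.4% for falls of members, and 48.7% and 56.1% for multi-exon genes. Cytosine and GC content therefore cannot be told apart here. Among well-counted genes of at least 27% cytosine, 16 of 32 members rose and 1 fell, beside 27.8% and 26.4% of multi-exon genes. From 22% to 27% cytosine 17 of 26 members rose, and below that 11 of 23, with 0 falls in both. The fallers CITED4, FNDC10, INAFM1, C11orf96 and ANKRD63 were above 30%, as were 10 of the 47 members that rose. FZD2, OR2B6 and PCDHB1 fell with 28.7%, 24.1% and 19.7% cytosine. The stretches of 40 coding bases with the most cytosine are shown for the 4 falls and the 4 rises of lowest p, so that the C-runs can be compared. They were read from the GENCODE transcripts, match hg38, run 5′ to 3′ on the coding strand, and carry runs of 3 or more C in capitals.
FNDC10 (fell, chr1:1599945-1599984, minus strand): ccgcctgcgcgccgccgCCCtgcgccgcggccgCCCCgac
C11orf96 (fell, chr11:43942981-43943020, plus strand): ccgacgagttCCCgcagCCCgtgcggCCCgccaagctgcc
INAFM1 (fell, chr19:47275100-47275139, plus strand): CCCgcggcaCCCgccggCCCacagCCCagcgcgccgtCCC
ANKRD63 (fell, chr15:40281968-40282007, minus strand): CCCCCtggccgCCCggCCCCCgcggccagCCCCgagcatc
P2RY1 (rose, chr3:152835863-152835902, plus strand): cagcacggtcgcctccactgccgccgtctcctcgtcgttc
IER5 (rose, chr1:181089137-181089176, plus strand): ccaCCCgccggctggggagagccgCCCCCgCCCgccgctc
HNRNPA0 (rose, chr5:137753842-137753881, minus strand): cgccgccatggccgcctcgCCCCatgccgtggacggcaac
HEXIM1 (rose, chr17:45149396-45149435, plus strand): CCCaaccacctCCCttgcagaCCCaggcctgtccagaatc

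In these windows, 24 of 40 bases were C in FNDC10, INAFM1 and ANKRD63 and 19 in C11orf96, beside 22 in IER5 and 19 in P2RY1, HNRNPA0 and HEXIM1. The window of P2RY1 holds no run of 3 C. Those of IER5, HNRNPA0 and HEXIM1, which also rose, hold runs of 3 or more C, as do those of the fallers. Over the whole coding sequence, C made up 43.7%, 32.8%, 41.8% and 37.1% of FNDC10, C11orf96, INAFM1 and ANKRD63, and 26.4%, 35.1%, 26.9% and 27.6% of P2RY1, IER5, HNRNPA0 and HEXIM1. These are the letters of the transcripts; binding was not measured here.

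**Figure D4:**
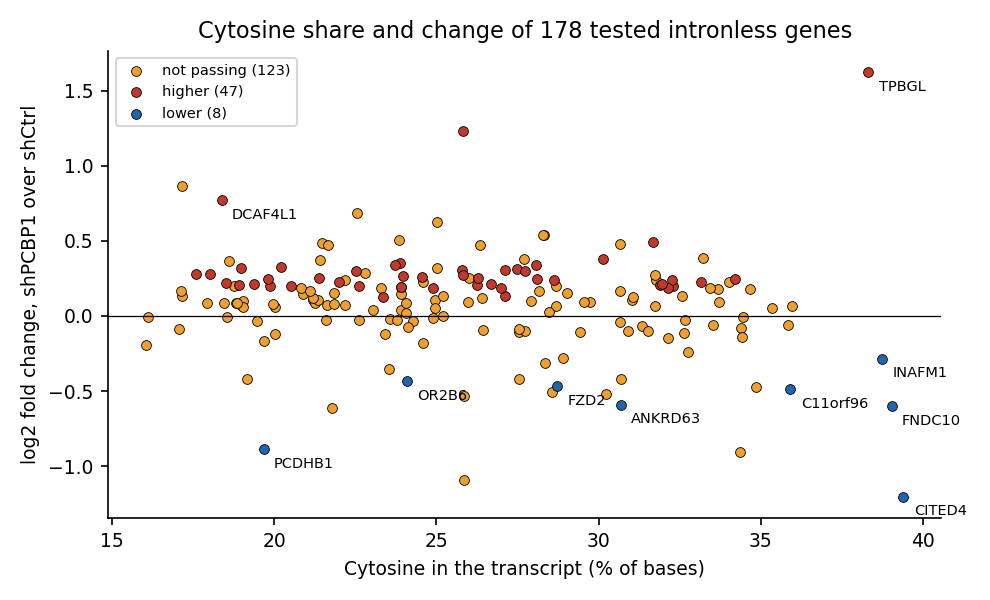
Log2 fold change (shPCBP1 over shCtrl) against the cytosine share of the transcript (% of bases) for the 178 tested intronless genes, coloured by call. The rises (red) lie between 17.6% and 38.3% cytosine, and 5 of the 8 falls (blue) lie above 30% cytosine.

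The rises with the lowest p were P2RY1, IER5 and HNRNPA0; P2RY1, HNRNPA0 and the HEXIM1, CENPB, PNMA1, CSTF2T and RBM15B below were chosen after their values were seen. P2RY1 (chromosome 3, 152835131 to 152841439, plus strand), the ADP receptor known from platelets, had normalized counts of 9474, 9474 and 9525 in shCtrl against 11997, 11649.9 and 11874 in shPCBP1. The groups were far apart beside the spread within them. Its log2 fold change was 0.32 (SE 0.0376, adjusted p 1.42e-15 by DESeq2), a 1.25-fold level. It averaged 22.5 TPM.

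Among genes of RNA metabolism, HNRNPA0 (chromosome 5, 137745651 to 137754363, minus strand), an hnRNP that binds AU-rich elements, had normalized counts of 20524, 19328 and 20574 in shCtrl against 25034, 24659 and 23684 in shPCBP1. Every shPCBP1 library was above every shCtrl library, and the log2 fold change was 0.28 (SE 0.0388, adjusted p 1.92e-11 by DESeq2). HEXIM1 (chromosome 17, 45148475 to 45152099, plus strand), which holds the elongation kinase P-TEFb inactive in the 7SK particle, had 7252, 7273 and 7311 in shCtrl against 8421, 9053 and 8601 in shPCBP1. It rose by 0.26 in log2 units (SE 0.044, adjusted p 1.06e-07 by DESeq2); exons of an antisense gene, HEXIM2-AS1, overlap it on the other strand. RPP25 (chromosome 15, 74954418 to 74956772, minus strand), a protein subunit of RNase P and RNase MRP, had 1007, 913 and 1159 in shCtrl against 1606, 1365 and 1367 in shPCBP1, with the groups apart. Its rise of 0.49 (SE 0.106, adjusted p 3.56e-05 by DESeq2) was the second largest among members averaging at least 100 normalized counts. CSTF2T, the intronless copy of a cleavage stimulation factor subunit, rose by 0.20 (SE 0.0542, adjusted p 0.00118 by DESeq2). RBM15B, a partner of the complex that methylates adenosine in RNA, rose by 0.24 (SE 0.0574, adjusted p 0.000175 by DESeq2), and its exon overlaps DCAF1 on the other strand. RRS1, a ribosome assembly factor, rose by 0.35 (SE 0.0696, adjusted p 4.72e-06 by DESeq2) from 4406, 3850.3 and 4689.8 in shCtrl against 5893, 5425 and 5237 in shPCBP1. With limma on log2 TPM the adjusted p of RPP25 was 0.0638 (pseudocount 0.1) and 0.0769 (pseudocount 1), that of CSTF2T 0.0696 and 0.0706, that of RBM15B 0.129 and 0.136 and that of RRS1 0.0456 and 0.0517, so of these calls only that of RRS1 at pseudocount 0.1 held there.

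The largest rise among members averaging at least 100 normalized counts was that of DCAF4L1 (chromosome 4, 41981756 to 41986465, plus strand), a relative of a CUL4 ubiquitin ligase receptor, with 115, 127 and 124 in shCtrl against 184, 204 and 237 in shPCBP1. It was weakly expressed at 0.462 TPM, and its log2 fold change was 0.77 (SE 0.223, adjusted p 0.00301 by DESeq2). NRARP (chromosome 9, 137299631 to 137302271, minus strand), a feedback inhibitor of Notch signalling, had normalized counts of 2039.9, 1951 and 1998 in shCtrl against 2612, 2490.5 and 2699 in shPCBP1. Its values were tight within groups and rose by 0.38 (SE 0.0661, adjusted p 1.5e-07 by DESeq2), with an unnamed gene on the other strand over part of its exon. HASPIN, a mitotic histone H3 kinase whose exon overlaps ITGAE on the other strand, rose by 0.34 (SE 0.0907, adjusted p 0.00118 by DESeq2). FUT4, the fucosyltransferase that makes the CD15 antigen, rose by 0.34 (SE 0.0698, adjusted p 1.51e-05 by DESeq2). Its exon overlaps exons of PIWIL4 on the same strand and of PIWIL4-AS1 on the other. Of its 31-base words, 89.2% were absent from other genes. The centromere protein CENPB and the Gag-derived PNMA1 rose by 0.24 (SE 0.0476) and 0.31 (SE 0.0536), with DESeq2 adjusted p of 5.35e-06 and 2.02e-07. Of the genes in this paragraph, DCAF4L1, HASPIN and FUT4 did not pass with limma on log2 TPM, at adjusted p of 0.208, 0.125 and 0.0855 with pseudocount 0.1 and of 0.105, 0.143 and 0.107 with pseudocount 1.

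Of the 6 most abundant members, HSPA1B, CCDC85B and SEPHS2 rose, and SF3B5, TMEM158 and JUNB did not pass. SF3B5 (chromosome 6, 144094884 to 144095573, minus strand), a small subunit of the SF3b complex that recognises the branch point, was the highest at 469 TPM. Its normalized counts were 16611, 15933 and 16717 in shCtrl against 16842, 17811 and 17002 in shPCBP1. The shPCBP1 libraries were above the shCtrl libraries by little, and the log2 fold change of 0.07 (SE 0.0387) did not pass (DESeq2 adjusted p 0.18). TMEM158, a membrane protein induced by Ras signalling, had 16862, 14986 and 11995 in shCtrl against 14159.8, 15675 and 16040.1 in shPCBP1. The groups overlapped, and its log2 fold change was 0.07 (SE 0.135, adjusted p 0.776 by DESeq2). SEPHS2, the selenophosphate synthetase of selenoprotein synthesis, had 13111, 12778 and 13528 in shCtrl against 14281, 14459.7 and 14343 in shPCBP1. Its rise of 0.13 (SE 0.0378, adjusted p 0.00374 by DESeq2) was the smallest that passed. CCDC85B, a coiled-coil protein, rose by 0.21 (SE 0.0542, adjusted p 0.000868 by DESeq2), and with transcript length offsets its DESeq2 adjusted p was 0.225. With limma on log2 TPM neither SEPHS2 (adjusted p 0.126 or 0.106 at pseudocount 0.1 or 1) nor CCDC85B (0.389 or 0.392) passed.

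Of the immediate early genes, 3 were members (JUNB, IER5 and IER5L), since JUN, JUND and IER2 have transcripts with introns in this annotation. IER5 (chromosome 1, 181088700 to 181092900, plus strand), an early response gene that acts on the heat shock factor, had normalized counts of 8578, 8446 and 8883 in shCtrl against 10524, 10680.0 and 10729.8 in shPCBP1. The groups were well apart, with a log2 fold change of 0.30 (SE 0.0404, adjusted p 3.59e-12 by DESeq2). JUNB, a subunit of AP-1, had 10843, 9817 and 10648 in shCtrl against 11325, 10934 and 11217 in shPCBP1. Its shPCBP1 libraries were all above its shCtrl libraries, but the log2 fold change of 0.10 (SE 0.0456) did not pass (DESeq2 adjusted p 0.0965), and HOOK2 overlaps it on the other strand. IER5L had a log2 fold change of 0.23 (SE 0.131, adjusted p 0.182 by DESeq2) with overlapping groups. Among 11 tested early response genes with introns, 1 rose and 2 fell, with a median of -0.05. The median count of this list was 1398. In that range (1000 to 3162) 16.97% of multi-exon genes rose and 19.3% fell, beside 9.09% and 18.2% of the list. EGR1 had a log2 fold change of -0.05 (SE 0.108), BTG2 of 0.05 (SE 0.0600) and FOSL1, the gene that rose, of 0.72 (SE 0.0908, adjusted p 1.13e-13 by DESeq2).

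Of the developmental and lineage factors, 1 of 6 tested FOX members and the 1 tested SOX member rose, where 17.7% of all tested genes did. Counts this small give no result about either family. FOXL2, a forkhead factor of ovary and pituitary, had 3426, 3266 and 3369 in shCtrl against 3644, 3955 and 4178 in shPCBP1. It rose by 0.23 (SE 0.062, adjusted p 0.00161 by DESeq2). SOX12, a SoxC factor, rose by 0.19 (SE 0.0533, adjusted p 0.00272 by DESeq2) from 4703, 4427 and 4805 in shCtrl against 5079.7, 5395 and 5388 in shPCBP1. With length offsets their DESeq2 adjusted p was 0.0744 and 0.0766, and on log2 TPM neither passed. The near-identical FOXD4, FOXD4L5 and FOXD4L1 had log2 fold changes of 0.24, 0.54 and 0.48 (SE 0.163, 0.233 and 0.248); 26.3%, 43.6% and 24.9% of their 31-base words were absent from other genes, so reads may be split among them. None of the 3 passed, with DESeq2 adjusted p of 0.274, 0.0611 and 0.134; FOXD4L5 passed without shCtrl replicate 2 (0.0290) and FOXD4L1 without shCtrl replicate 3 (0.0211). FOXD2 and POU3F2 were low, at 0.664 and 0.291 TPM, with log2 fold changes of 0.18 (SE 0.244) and 0.24 (SE 0.278). Of the C/EBP and MAF members, 3 were tested and 0 passed. CEBPB, a factor of myeloid differentiation, had 3657, 4609 and 3498 in shCtrl against 4148, 3926 and 4097 in shPCBP1 with overlapping groups. Its log2 fold change was 0.05 (SE 0.0826), but 0.18 with a DESeq2 adjusted p of 0.00942 without shCtrl replicate 2 and -0.02 without shCtrl replicate 3. CEBPD, a related factor, had a log2 fold change of 0.18 (SE 0.102, adjusted p 0.187 by DESeq2).

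Among the HSP70 chaperones, HSPA1B (chromosome 6, 31827738 to 31830254, plus strand), which is induced by heat and proteotoxic stress, averaged 272 TPM. Its normalized counts were 50053, 41349.6 and 52206 in shCtrl against 58971, 59326 and 58658 in shPCBP1. The lowest of them was that of shCtrl replicate 2, and the groups did not overlap. It rose by 0.30 (SE 0.1, adjusted p 0.0113 by DESeq2), but 25.5% of its 31-base words were absent from other genes, so reads may be shared with the near-identical HSPA1A, which is not a member because 1 of its transcripts has 2 exons. When 1 of the shPCBP1 libraries was left out, whichever it was, the DESeq2 adjusted p lay between 0.0559 and 0.0729, at log2 fold changes of 0.30, and with limma on log2 TPM the adjusted p was 0.0786 or 0.0899 (pseudocount 0.1 or 1). HSPA6, another inducible form, had 1476, 1712 and 1498 in shCtrl against 1554, 1262 and 1544 in shPCBP1, with overlapping groups and a log2 fold change of -0.10 (SE 0.0979, adjusted p 0.474 by DESeq2). Among 7 chaperones of the family with introns, 2 rose and 0 fell, with a median of 0.12. The median count of this list was 37602, where 41.2% of multi-exon genes (above 10000) rose, beside 28.6% of the list. HSPA9 rose by 0.15 (SE 0.0325, adjusted p 2.66e-05 by DESeq2), and HSPA8 had 0.19 (SE 0.0929, adjusted p 0.113 by DESeq2).

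TPBGL and CITED4, past the study's thresholds, were weakly expressed. TPBGL (chromosome 11, 75240774 to 75243704, plus strand), a leucine-rich repeat membrane protein, had normalized counts of 24.9, 16.3 and 13.1 in shCtrl against 56.2, 71.2 and 40.1 in shPCBP1. The log2 fold change was 1.63 (SE 0.497, adjusted p 0.00536 by DESeq2), with TPBGL-AS1 on the other strand over its exon. CITED4 (chromosome 1, 40861054 to 40862363, minus strand), which binds the coactivators CBP and p300, had 65.2, 60.9 and 72.2 in shCtrl against 25.9, 26.1 and 34.6 in shPCBP1. It fell to 0.434 of the control level, with a log2 fold change of -1.20 (SE 0.415, adjusted p 0.0153 by DESeq2). In both the groups did not overlap. TPBGL did not pass with limma on log2 TPM (adjusted p 0.114 or 0.0948 at pseudocount 0.1 or 1), while CITED4 did. Such counts are close to the lowest mean at which DESeq2 gave an adjusted p, and the number of members past the thresholds was 0 when shCtrl replicate 1, or shCtrl replicate 2, or shPCBP1 replicate 1 was left out. Without shPCBP1 replicate 2 the DESeq2 adjusted p of CITED4 was 0.0506.

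Among the other falls, FNDC10 (chromosome 1, 1598012 to 1600135, minus strand), a membrane protein with a fibronectin type III domain, had normalized counts of 862, 824 and 683 in shCtrl against 545, 522 and 491 in shPCBP1. It fell with a log2 fold change of -0.60 (SE 0.127, adjusted p 2.43e-05 by DESeq2). C11orf96 (chromosome 11, 43942637 to 43943878, plus strand), an uncharacterised gene overlapped by unnamed genes on both strands, had 839, 999 and 963 in shCtrl against 631, 659 and 707 in shPCBP1. Its log2 fold change was -0.49 (SE 0.112, adjusted p 0.000122 by DESeq2). INAFM1 (chromosome 19, 47274885 to 47275723, plus strand), a small membrane protein and the best expressed of the falls at 38.6 TPM, had 1986, 1958 and 1982 in shCtrl against 1583, 1635 and 1649.7 in shPCBP1. The spread within its groups was small beside its log2 fold change of -0.28 (SE 0.0703, adjusted p 0.000382 by DESeq2). ANKRD63, an ankyrin repeat gene within the span of PLCB2, had 303, 439 and 419.5 in shCtrl against 229, 264 and 278 in shPCBP1, and FZD2, a Wnt receptor, had 383, 505 and 413 in shCtrl against 304, 303 and 334 in shPCBP1. Their log2 fold changes were -0.59 (SE 0.186) and -0.47 (SE 0.161), with DESeq2 adjusted p of 0.0071 and 0.0154. Without shCtrl replicate 2, the library in which both were highest, the adjusted p values were 0.0722 and 0.113, and they were also over 0.05 without shPCBP1 replicate 1 (0.0561 and 0.0603) and with limma on log2 TPM (0.251 and 0.262 at pseudocount 0.1). PCDHB1, a clustered protocadherin, was the 1 tested member of its family and fell by 0.89 in log2 units (SE 0.339, adjusted p 0.0318 by DESeq2) at 0.138 TPM. It was named after its values were seen, and its call was lost in 7 of 15 alternative fits, among them the fits lacking replicate 1 or 2 of shCtrl or replicate 1 of shPCBP1 (DESeq2 adjusted p from 0.123 to 0.153).

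**Figure D5:**
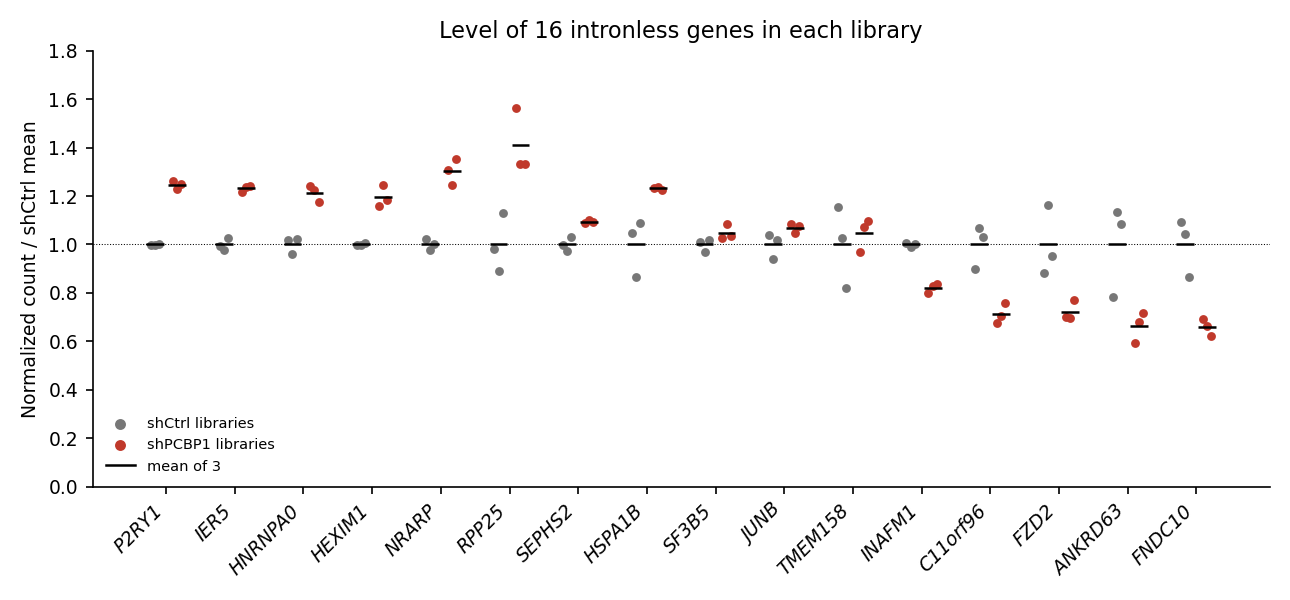
Normalized count of 16 intronless genes in each library, divided by the mean of the 3 shCtrl libraries (grey, shCtrl; red, shPCBP1; bars, mean of 3). The genes on the left rose in shPCBP1 by 9.27% to 40.7%, SF3B5, JUNB and TMEM158 lie near 1, and the 5 on the right fell, INAFM1 by 17.9% and FNDC10 by 34.1%.

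The large gene families of the class were mostly silent. Of 204 olfactory receptors, 139 had no count in any library and 8 were tested, with 1 higher and 1 lower. Over all genes tested, 17.7% rose and 13.5% fell. OR51B4 (chromosome 11, 5301014 to 5301946, minus strand), which lies in the beta-globin locus within the spans of HBE1 and HBG2 on the same strand, stood out with 33.7 TPM and was named after its values were seen. Its normalized counts were 1719.7, 1390.0 and 1943 in shCtrl against 2203, 1925 and 1992 in shPCBP1; the groups overlapped, and it passed with a log2 fold change of 0.27 (SE 0.104, adjusted p 0.0298 by DESeq2). That call was lost in 9 of 15 alternative fits, including every fit that left out 1 library except shCtrl replicate 3 (DESeq2 adjusted p from 0.0589 to 0.216). OR2B6 had 369, 409.7 and 351 in shCtrl against 280.0, 300.3 and 253 in shPCBP1 and fell by 0.43 (SE 0.163, adjusted p 0.0278 by DESeq2), a call that was lost in 8 of 15 alternative fits, at an adjusted p of up to 0.114 without shCtrl replicate 2. Leaving out the OR51 and OR52 genes near globin, the other 177 receptors together held 8.31, 9.40 and 8.26 CPM (counts scaled to library total) in shCtrl and 7.80, 7.74 and 7.59 CPM in shPCBP1. OR2B6 held a large part of that sum, and without it, an alternative chosen after the data were seen, the remaining 176 held 4.33, 4.85 and 4.45 CPM in shCtrl and 4.87, 4.54 and 4.86 CPM in shPCBP1, with overlapping groups.

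All 16 type I interferon members had no count in any library, and of 94 keratin-associated and cornified envelope members 80 had none and 0 were tested. Of 26 taste and trace amine receptors 3 were tested and 0 passed. Of 30 other G protein-coupled receptors, 2 were tested, P2RY1 among them. Of 4 tested BTB and kelch members and 2 tested zinc finger members, 0 passed. The 6 retrocopies of the poly-A binding protein and other families had 0 tested genes.

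Genes that act on RNA leaving the nucleus, all with introns except CSTF2T, were tallied beside the members. Of 18 mRNA export genes found, 7 rose and 2 fell, with a median of 0.06. Of 22 cleavage and polyadenylation genes, 10 rose, CSTF2T among them, and 3 fell, with a median of 0.08. The median counts of the lists were 9114 and 10183, where 31.7% of multi-exon genes (3162 to 10000) and 41.2% (above 10000) rose, beside 38.9% and 45.5% of the lists. DDX39B had a log2 fold change of 0.04 (SE 0.0328), and PAPOLA, the poly-A polymerase, rose by 0.14 (SE 0.0373, adjusted p 0.00121 by DESeq2). The medians of both lists were under that of the well-counted members.

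Promoters of the members are shown for the 2 rises of lowest p. The sequences are the 250 bases before the RefSeq start on GRCh38.p14, with motif matches in capitals.
P2RY1 (chr3:152834881-152835130, plus strand): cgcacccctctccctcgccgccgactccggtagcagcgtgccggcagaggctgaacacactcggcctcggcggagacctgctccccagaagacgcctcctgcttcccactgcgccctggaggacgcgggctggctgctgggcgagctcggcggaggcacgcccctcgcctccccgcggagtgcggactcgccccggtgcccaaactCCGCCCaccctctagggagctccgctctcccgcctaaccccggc
IER5 (chr1:181088450-181088699, plus strand): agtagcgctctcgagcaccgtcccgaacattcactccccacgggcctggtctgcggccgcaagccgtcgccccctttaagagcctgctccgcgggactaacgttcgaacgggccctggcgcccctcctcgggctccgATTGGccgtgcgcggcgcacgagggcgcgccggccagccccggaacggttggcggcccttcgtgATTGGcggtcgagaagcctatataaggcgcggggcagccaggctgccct

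Both strands of every promoter were searched for 5 motifs, none of which contains another. They were TATAAA, the letters of the TATA box, then CCAAT, which binds NF-Y, then GGGCGG, the box bound by the Sp family. The core of ETS factor sites, CCGGAAG, was also searched, as was AGATAA, a site of the erythroid GATA factors. P2RY1 held 1 match, to the GC box, and IER5 held 2, both to CCAAT. RefSeq promoters were found for 637 members and 135 tested members. GGGCGG lay in 63.7% of the 135, in 65.7% of the 35 that rose and in 42.6% of all 35116 promoters of that length. CCAAT lay in 36.3%, 40% and 32.0%, TATAAA in 11.1%, 14.3% and 10.7%, CCGGAAG in 11.1%, 14.3% and 8.52%, and AGATAA in 2.96%, 5.71% and 9.17%. The tested members are expressed genes while all promoters include silent ones.

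Reads can be shared with neighbours or copies. Among the 178 tested members, 39 overlap the span of another gene on the same strand and 55 overlap an exon on the other strand. For 32, under 90% of their 31-base words were absent from other genes. Of the 55 members that passed, 13, 19 and 6 were of these kinds and 28 of any. NUDT4B and GALNT4 rose by 0.25 and 0.28 (SE 0.0681 and 0.101), with 8.64% and 6.63% of their words absent from other genes, so these values are uncertain. Both were chosen after their values were seen, and with limma on log2 TPM neither passed (adjusted p 0.109 and 0.323 at pseudocount 0.1); GALNT4 was also lost without shCtrl replicate 1 or 3 or shPCBP1 replicate 2 or 3 (DESeq2 adjusted p from 0.0649 to 0.18). The groups were apart for 44 of the 47 rises and for all 8 falls. These members were picked by a test on the same 6 libraries, so this separation adds no evidence. Of the 123 members that did not pass, the shPCBP1 libraries were all above in 27 and all below in 5. The share over all genes was not counted, so these counts give no result about the members.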

How the data were processed

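Poly-A RNA of 6 K562 libraries was analysed, 3 shCtrl and 3 shPCBP1, grouped by their labels. Salmon 1.10.2 was run by the authors to estimate counts for each transcript, with hg38 named in the submitters' processing notes. The release behind the index and the strandedness of the libraries are not given in the sources used here. The estimated counts were deposited without normalization, and the deposited TPM values were scaled by the authors' software for effective transcript length. The effective lengths in the deposited tables served for length offsets.

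Each table lists 252045 transcripts, of which 251612 matched GENCODE release 44 by identifier without version, and the rest held 0.136% to 0.147% of the counts. Totals were 126567836, 83033656 and 140522444 counts in shCtrl replicates 1 to 3 and 85121124, 79189195 and 67066747 in shPCBP1. Precision is lowest for genes of few counts, and no interval was made from counts alone.

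Gene counts were the rounded sums over transcripts, and a gene needed a sum of 10 to enter DESeq2 (two-sided Wald test on group alone, median-of-ratios factors), with Benjamini-Hochberg adjustment over all genes; missing adjusted p-values were kept missing, and fold changes are unshrunken. Members were counted from this fit, with no test over the class. The genes named were all members past the study's thresholds, the 6 largest rises and 6 largest falls with an adjusted p under 0.05 and a mean normalized count of at least 100, the 6 of highest TPM, and members of listed families with a mean of at least 100, at most 5 each; other genes, and the examples with introns, were chosen after their values were seen. One gene that this rule selects is not reported here. The members and lists were chosen with earlier results of these data known. The fit was also run on simulated counts, with known changes in genes averaging at least 100. It recovered 38 of 50 changes of 1.5-fold, 46 of 50 of 2-fold and all 50 each of 3-fold and 4-fold. Among 27299 genes fitted, 29 unchanged ones were called. Changes as small as the median rise of 1.19-fold were not simulated, so the simulation does not cover most of the rises.

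Same-numbered libraries of the groups did not deviate together (correlations of 0.0130, 0.00453 and -0.0285 over 21567 genes), and replicate numbers were not taken as pairs. Alternatives were edgeR, TMM factors, length offsets, protein-coding genes alone, other count filters, limma on log2 TPM, a replicate block, leaving out each library, other member rules, and leaving out members that share reads with other genes. Sequences came from the GENCODE transcripts and RefSeq promoters on GRCh38. Software was Python 3.11.15, limma 3.58.1, edgeR 4.0.16, DESeq2 1.42.0 and R 4.3.3.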

Additional observations from a re-analysis of the deposited data

How the results depend on the processing

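Of the 55 members that passed with DESeq2 (47 higher, 8 lower), edgeR called 45 among its 48, and limma on log2 TPM called 13 (9 higher, 4 lower; pseudocount 0.1) or 12 (8 higher, 4 lower; pseudocount 1), all among the 55, so the share of rises went from 85.5% to 69.2% or 66.7%. Well-counted rises numbered 44, and 9 or 8 with limma. Over all genes, limma called 995 or 920 rises where DESeq2 called 3022. Length offsets called 40 members. A replicate block called 41, of which 4 were lower, and 0 were past the study's thresholds; the numbers do not pair the libraries. Members past those thresholds numbered 3, but 5 with edgeR, 6 with protein-coding genes alone, and 1 or 0 with limma. Without members that overlap an exon on the other strand, 36 passed, 30 of them higher and 28 of those well counted, by construction of a smaller set.

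The difference of the medians was 0.0987 over 178 tested members. With edgeR it was 0.0638 and with limma 0.0459 or 0.0141, each over 321 members. It was 0.0739 when the canonical transcript alone needed 1 exon and 0.142 from a mean of 1000. Among well-counted genes it stayed between 0.0989 and 0.147 in all 15 alternative fits. The rise in the TPM share of 0.0210 points became -0.00695 with histone genes, 0.0358 by canonical transcript, 0.0119 without same-strand overlap, 0.0144 without shared words, 0.0452 in counts and 0.0123 without the 6 most abundant members; with histone genes 3 well-counted members fell. The cause was not tested.

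Leaving out each library in turn gave 37 to 50 calls, 34 to 44 higher, 3 to 7 lower, 0 to 2 past the thresholds, 33 to 40 well-counted rises and 1 well-counted fall, with median differences of 0.0955 to 0.122 and share differences of 0.0185 to 0.0234 points. The falls numbered 5 without shCtrl replicate 1, and 3 without shCtrl replicate 2 or shPCBP1 replicate 1.

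CEBPB (0.05) and TMEM158 (0.07), neither past the test, changed sign with length offsets (-0.0381 and -0.0100), with limma (-0.0499 and -0.0203 at pseudocount 0.1, -0.0488 and -0.0202 at pseudocount 1) and without shCtrl replicate 3. Leaving out each library in turn gave them -0.0239 to 0.182 and -0.0577 to 0.181. FNDC10, C11orf96, INAFM1, IER5 and NRARP passed in all 15 fits. Of the values of the named genes, 250 kept direction and side of the threshold in the other settings, 35 lost the call, 1 gained it and 6 changed sign; when a library was left out these numbers were 165, 14, 3 and 2. CITED4 received an adjusted p in 10 of the 15 fits and TPBGL in 6. At these depths, members under a mean of 36.8 normalized counts received no adjusted p, and among 97 tested members under a mean of 1000 there were 3 rises and 7 falls.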
